A study of Mus musculus with 8 samples.

Results

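Sox11, Pou3f3, Foxn3 and Zbtb18 encode DNA-binding proteins that act in embryonic development, and their transcripts were followed in the kidney-forming tissue of mouse embryos with and without Wt1. Each gene was read by 1 probe of an Applied Biosystems array for mouse, hybridised in 1 colour. The genes were chosen by their probes, with earlier results of these data known. The files tie these probes to transcripts NM_009234.3 (Sox11), NM_008900.1 (Pou3f3), NM_183186.1 (Foxn3) and NM_013915.1 (Zbtb18). The genes are 4 of the 311 genes, and their probes 4 of the 317 probes out of 33012, that could be given a symbol. The design asks which transcripts are misregulated when Wt1 is lost, before the cells of the mutant begin to die.

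There were 4 mutant and 4 control pools, each made from 16 dissected metanephric kidneys of 1 genotype at E10.25 (8 to 13 tail somites). All embryos came from mice of a mixed C57Bl6/DBA background that carried the Wt1 allele described by Kreidberg et al., and the mutant pools are labelled as Wt1 knockout. The control pools are titled wild type but carry the genotype entry heterozygote, so they may carry 1 mutant copy. The labels do not say whether pools came from separate litters, so the errors below measure the spread between these pools, which may be partly technical. The array names of mutant pools 1 and 4 give the same mutant number, so these 2 may be 1 sample run again, and n = 4 for mutants may then be 3. No gene of the metanephric mesenchyme, ureteric bud or stroma marker lists was located among the probes with a symbol, so the tissue label was not checked by markers.

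Sox11 belongs to the SoxC group of HMG-box factors, which are active in neural progenitors, young neurons and many mesenchymal tissues. Mouse embryos without Sox11 have malformations of the kidney and urinary tract among other organs. Pou3f3, also called Brn1, is a POU-domain factor that is known in the mouse for its part in the brain and in the later nephron, where the loop of Henle depends on it. Foxn3, also called Ches1, is a forkhead factor described as a transcriptional repressor. Zbtb18, also called RP58, is a repressor with a BTB domain and zinc fingers that is required for the cerebral cortex of the mouse. WT1 is itself a zinc finger factor, without which the mouse kidney does not form.

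The bases ahead of the annotated start sites show the base composition there and whether letters that WT1 is known to bind occur. The 250 bases before the start site are given from RefSeq's windows on GRCm38.p6, with every CG dinucleotide in capitals. The table held 1 window each for Sox11, Pou3f3 and Foxn3 and 5 for Zbtb18, of which the one farthest upstream is shown. The Foxn3 window belongs to a start site inside the annotated span of the gene.
Sox11, chr12:27342719-27342968, minus strand: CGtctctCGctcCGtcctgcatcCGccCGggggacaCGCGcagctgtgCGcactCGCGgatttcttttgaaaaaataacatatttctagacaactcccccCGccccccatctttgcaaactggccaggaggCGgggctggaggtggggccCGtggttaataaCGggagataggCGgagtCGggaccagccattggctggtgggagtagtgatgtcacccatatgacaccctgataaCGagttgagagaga
Pou3f3, chr1:42695518-42695767, plus strand: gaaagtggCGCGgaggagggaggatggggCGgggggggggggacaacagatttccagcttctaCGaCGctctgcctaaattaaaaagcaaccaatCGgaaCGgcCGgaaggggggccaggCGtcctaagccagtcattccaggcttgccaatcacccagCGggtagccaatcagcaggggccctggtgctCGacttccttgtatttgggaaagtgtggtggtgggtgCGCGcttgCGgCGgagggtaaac
Foxn3, chr12:99450075-99450324, minus strand: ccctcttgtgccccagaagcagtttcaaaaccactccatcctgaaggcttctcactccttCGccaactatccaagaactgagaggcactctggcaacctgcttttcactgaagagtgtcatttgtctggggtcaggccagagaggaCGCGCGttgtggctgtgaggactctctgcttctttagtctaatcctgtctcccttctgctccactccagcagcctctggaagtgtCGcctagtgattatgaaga
Zbtb18, chr1:177442101-177442350, plus strand: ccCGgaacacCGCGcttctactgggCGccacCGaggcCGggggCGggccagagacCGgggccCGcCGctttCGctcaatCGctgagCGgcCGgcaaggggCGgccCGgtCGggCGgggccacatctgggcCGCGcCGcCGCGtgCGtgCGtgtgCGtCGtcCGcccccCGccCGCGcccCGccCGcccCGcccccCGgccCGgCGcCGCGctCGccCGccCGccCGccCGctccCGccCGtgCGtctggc

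The 4 stretches differ in CG content. The Zbtb18 window held 47 CG dinucleotides, more than 99.8% of the 32851 windows in the table, whereas the median window held 6. The other 4 windows of Zbtb18 went the opposite way, with 0, 0, 2 and 2, so the high CG content belongs to the farthest upstream start site of that gene. Sox11 held 17 and Pou3f3 15, against 27.3% of all windows with at least 15. Foxn3 held 5, close to the median. WT1 binds GC-rich letters such as GCGGGGGCG and GCGTGGGCG, which it shares with the EGR factors, and GCGTGGGAG. Neither strand of any of the 8 windows of these genes held one of the 3 motifs, which occur in 2.57%, 0.536% and 0.405% of all windows. That says only that these letters are not in these 250 bases. The letters CCAAT, present on either strand in 33.8% of all windows, occurred in Sox11 on the opposite strand, at 60 bases before the start. In Pou3f3 they occurred 3 times, at 160, 103 and 84 bases before it. They also occurred in 1 of the 4 Zbtb18 windows not printed. The letters TATAAA, found in 12.4% of all windows, were absent from the 4 windows printed but present on either strand in the other 4 windows of Zbtb18, of which the windows with 0 CG overlap and share their match. In 1 of these they stood at 24 bases before the start, overlapping a match on the opposite strand at 26. No matches overlapped in the printed windows.

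The arrays themselves differed in ways that touch every value below. Median deposited signal ran from 681.6 to 2118.2 and between 52.6% and 59.5% of probes were detected. On the first principal component of the tested probes, control pools 1 and 2 scored 42.2 and 67.5 and the remaining 6 pools -21.5 to -13.1. The typical (median) SD of a probe was 0.29 among controls and 0.14 among mutants on the log2 scale. Results are therefore given with all pools, without control pools 1 and 2, and without control pools 3 and 4. Both pairs were picked by the first principal component of these same arrays, where control pools 3 and 4 (-16.6 and -19.6) scored among the mutants. Leaving out control pools 3 and 4 thus favours a wide genotype gap. The p-values and intervals without either pair only describe these pools. Digits in the array names, read here as dates, place mutant pool 1 and control pool 2 on one date and the other 6 pools on another. No label gives a batch. Values are log2 signals after quantile normalization, and a difference is the mutant mean minus the control mean.

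Sox11, the HMG-box factor, was strongly detected in all 8 pools, with signal-to-noise from 83.58 to 112.94. Its log2 signal was 16.93, 16.69, 16.52 and 16.52 in control pools 1 to 4 and 16.72, 16.21, 16.63 and 16.80 in mutant pools 1 to 4. Control pool 1 was the highest and mutant pool 2 the lowest, and the other 3 mutant pools lay inside the control range. The means were 16.67 ± 0.19 in controls and 16.59 ± 0.26 in mutants (SD, n = 4). The difference was -0.08 (SE 0.16, limma's adjusted p = 0.821), smaller than the SD within either genotype. Its 95% interval, from -0.45 to 0.29, ran from a 1.36-fold lower to a 1.22-fold higher signal in mutants. The sign depended on single pools, being 0.05 without mutant pool 2 and 0.01 without control pool 1. In pooled tissue, fewer cells that express a gene and less RNA in each of them cannot be told apart.

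Mutant pool 2 was also one of the pools with an uneven deposited normalization. The factor between the signal and the array-normalized signal was 1113.7 for Sox11 and Zbtb18 there, but 940.9 for Pou3f3 and 943.3 for Foxn3. In control pool 2 it was 697.6 for the first pair and 619 and 617.6 for the others. On the array-normalized scale, without quantile normalization, Sox11 in mutant pool 2 measured 64.7 against 94.08 to 105.47 in the other mutant pools. A larger factor gives a lower array-normalized value, so the 64.7 carries the uneven factor. Array-normalized Foxn3 was 34.57 in mutant pool 2, above the 34.1 of mutant pool 3. From array-normalized values the log2 difference of Sox11 was -0.15 (limma's adjusted p = 0.657), again not past the threshold.

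Pou3f3, the POU-domain factor, gave a signal near the detection limit. Its signal-to-noise ran from 2.29 to 8.28, and it was detected in 3 of 4 mutant and all 4 control pools. The log2 signal was 11.06, 10.88, 10.28 and 9.96 in control pools 1 to 4. It was 10.00, 9.52, 10.71 and 10.23 in mutant pools 1 to 4, where pool 2 was the one not detected. Control pools 1 and 2 were the highest of all 8, and control pools 3 and 4 fell among the mutants. The means were 10.55 ± 0.51 in controls and 10.11 ± 0.50 in mutants (SD, n = 4). Mutants differed from controls by -0.43 (SE 0.31, limma's adjusted p = 0.492). The 95% interval from -1.14 to 0.28 includes a 2.21-fold lower signal in mutants, so a 2-fold fall of Pou3f3 was not excluded by these arrays. Without control pools 1 and 2 the difference was -0.01 (SE 0.32, limma's adjusted p = 0.995). Without control pools 3 and 4 it was -0.86 (SE 0.31, limma's adjusted p = 0.0893), still not past the threshold of 0.05. With array weights it was -0.14. The weights were lowest for control pools 1 and 2 (0.30 and 0.16, against 1.33 to 2.20 in the other pools). Without mutant pool 2, where Pou3f3 was not detected, the difference was -0.23 (limma's adjusted p = 0.741). The difference in means of Pou3f3 thus depended on which pools entered, of either genotype.

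Foxn3, the forkhead factor, had the narrowest interval of the 4. It was detected in all 8 pools with signal-to-noise from 40.78 to 65.68. Its log2 signal was 15.44, 15.36, 15.21 and 15.22 in control pools 1 to 4 and 15.28, 15.06, 15.20 and 15.37 in mutant pools 1 to 4. The genotypes overlapped, with mutant pool 4 above control pools 2, 3 and 4, and mutant pools 2 and 3 below every control. The means were 15.31 ± 0.11 in controls and 15.23 ± 0.13 in mutants (SD, n = 4). The difference was -0.08 (SE 0.11, limma's adjusted p = 0.723), with a 95% interval from -0.34 to 0.18. That interval reaches a 1.26-fold lower and a 1.13-fold higher signal in mutants. Without control pools 1 and 2 the difference was 0.01 (limma's adjusted p = 0.967), and without control pools 3 and 4 it was -0.17 (limma's adjusted p = 0.31).

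Zbtb18, the BTB zinc finger repressor, was detected in all 8 pools with signal-to-noise from 44.8 to 88.51. Its log2 signal was 15.84, 15.95, 15.58 and 15.68 in control pools 1 to 4 and 15.72, 15.50, 15.62 and 15.65 in mutant pools 1 to 4. Control pools 1 and 2 lay above all mutants, and control pools 3 and 4 lay among them. The means were 15.76 ± 0.16 in controls and 15.62 ± 0.09 in mutants (SD, n = 4). The difference was -0.14 (SE 0.12, limma's adjusted p = 0.537), with a 95% interval from -0.41 to 0.12. At its limits the signal was 1.33-fold lower or 1.09-fold higher in mutants. Without control pools 1 and 2 the difference was -0.01 (limma's adjusted p = 0.963), and without control pools 3 and 4 it was -0.28 (limma's adjusted p = 0.0967). The 95% interval of the latter, from -0.53 to -0.03, did not reach 0. That setting kept only the controls that scored apart from the mutants on the first principal component. In that setting 26% of all tested probes passed the threshold, and Zbtb18 did not.

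**Figure D1:**
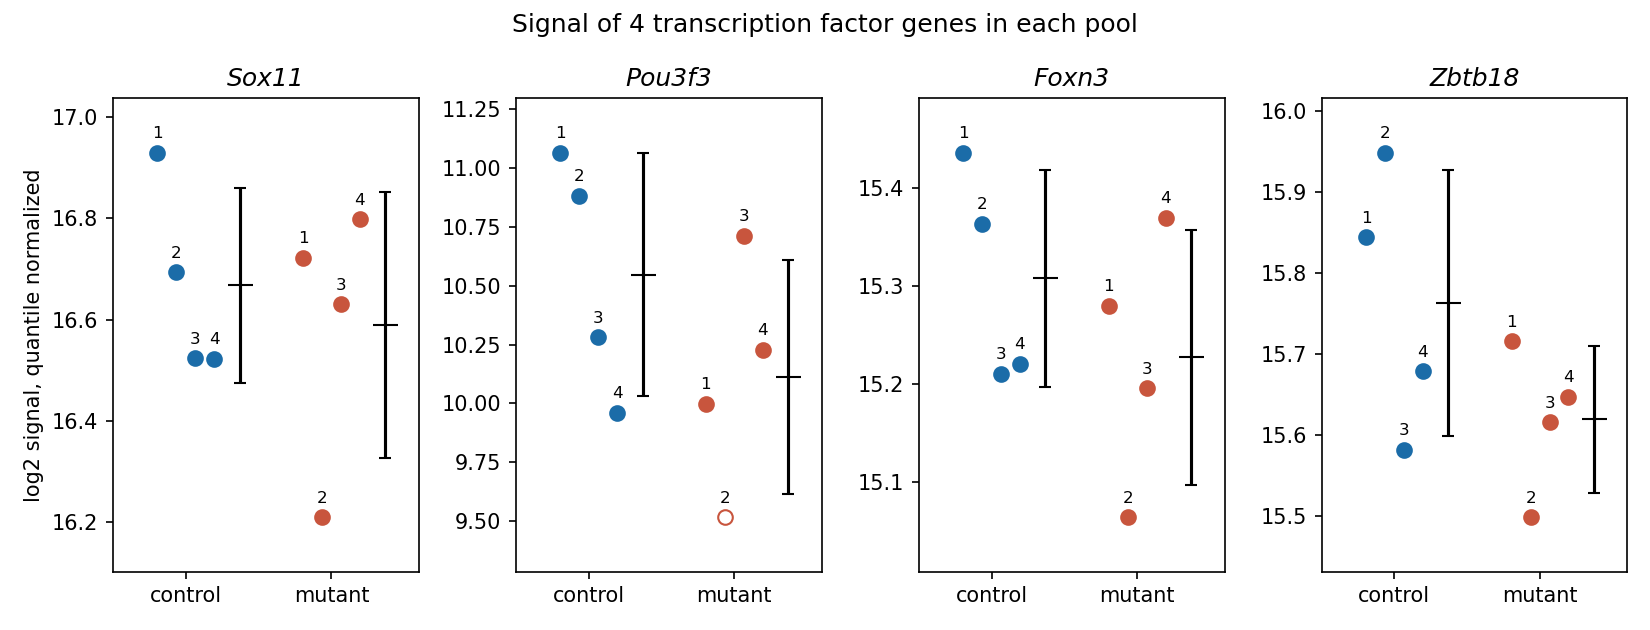
Log2 signal (quantile normalized, vertical axes differ by gene) of each gene in the 4 control pools (blue) and 4 mutant pools (red), numbered by pool, with the mean and SD in black; an open symbol is a pool in which the probe was not detected. The genotypes overlap for all 4 genes, and control pool 1 or 2 is the highest pool for each.

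For the 4 genes together, 0 of 4 passed limma's threshold, where 0.46% of the 17594 tested probes did (81 probes, 69 lower and 12 higher in mutants). None of the 4 had an unadjusted p under 0.05, which 13.5% of tested probes had. The unadjusted p was 0.199 for Pou3f3, 0.251 for Zbtb18, 0.494 for Foxn3 and 0.645 for Sox11. None had mutant and control pools without overlap, as was the case for 10.6% of tested probes. The exact two-sided permutation test over pools gave p = 0.229 for Pou3f3 and Zbtb18, 0.4 for Foxn3 and 0.686 for Sox11, where 0.0286 is the smallest p that 4 against 4 pools allow. All 4 means were lower in mutants, as were 58.4% of all tested probes. The median difference was -0.06 over all tested probes, so the values of Sox11 and Foxn3, at -0.08, lay close to that of a middle probe.

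The size of a change that these data leave room for differed between the genes. For Sox11, Foxn3 and Zbtb18 the 95% intervals stayed inside a 2-fold change in both directions, also when either pair of controls was left out. The widest limit among them was -0.67, for Sox11 without control pools 3 and 4. For Pou3f3 the interval with all pools passed a 2-fold fall, and without control pools 3 and 4 it ran from -1.61 to -0.11. The latter setting kept only the controls picked as apart from the mutants on these same arrays. Within the larger array date, with 3 pools of each genotype, the differences were -0.11 for Sox11, -0.28 for Pou3f3, -0.08 for Foxn3 and -0.11 for Zbtb18 (limma's adjusted p from 0.746 to 0.844). The smaller date holds 1 pool of each genotype and allows no test. With mutant pools 1 and 4 averaged as 1 sample the differences were -0.13 for Sox11, -0.43 for Pou3f3, -0.11 for Foxn3 and -0.16 for Zbtb18 (limma's adjusted p from 0.609 to 0.749), and 36 probes in place of 81 passed. The 95% intervals hold for 1 gene at a time and are not adjusted over the probes.

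**Figure D2:**
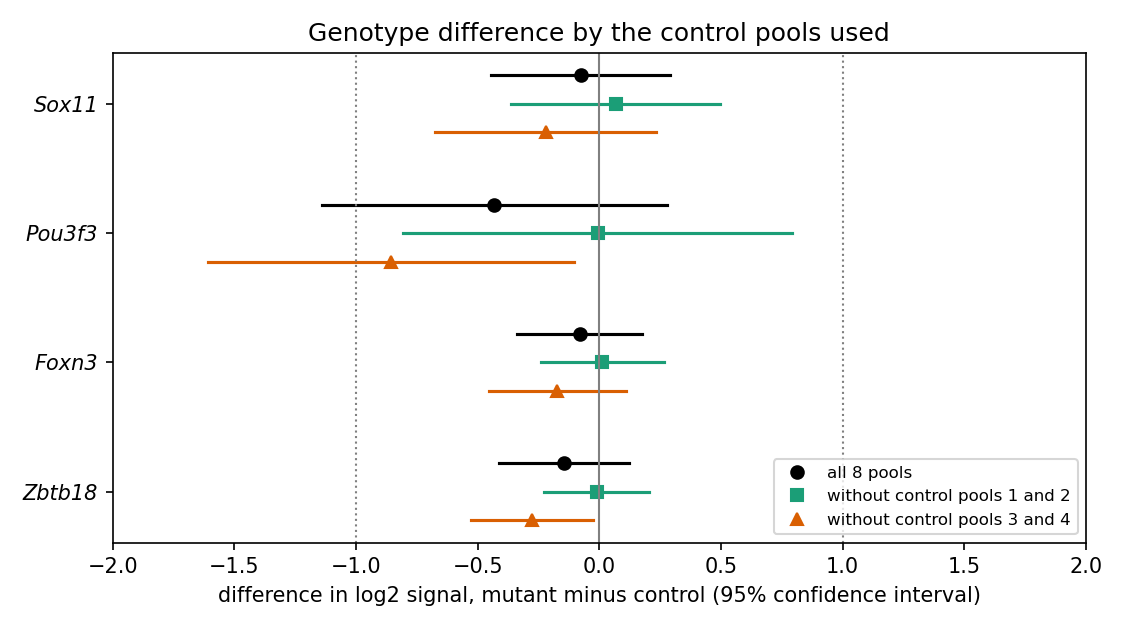
Difference in log2 signal, mutant minus control, with its 95% confidence interval from limma, for each gene with all 8 pools (circles), without control pools 1 and 2 (squares) and without control pools 3 and 4 (triangles); dotted lines mark a 2-fold change. Without control pools 1 and 2 the 4 differences lie between -0.01 and 0.07, and only intervals of Pou3f3 cross a dotted line.

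The control pools differed among themselves in the same direction for all 4 genes. The mean of control pools 1 and 2 was above that of control pools 3 and 4 by 0.29 for Sox11, 0.18 for Foxn3, 0.27 for Zbtb18 and 0.85 for Pou3f3. These gaps were larger than the genotype difference of the same gene in every case. They compare 2 pools with 2, however, split by the first principal component of these same arrays. The share of all tested probes with a gap larger than their genotype difference was not computed. A gap above 0 was found at 60.5% of tested probes, with a median of 0.13, and 95.2% of probes had a lower value than Pou3f3. For Sox11, Foxn3 and Zbtb18 that share was 64%, 54.6% and 62%. The only located marker of the 6 red cell genes, the alpha globin Hba-a1, ran the other way. Its log2 signal was 18.08 and 18.66 in control pools 1 and 2, 19.40 and 19.64 in control pools 3 and 4, and 19.77 to 20.10 in mutants. The defining markers of the other cell types listed were not located, and the part of blood content in the values of the 4 genes was not tested.

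Seen against other probes, the spread of the 4 genes was uneven. Pou3f3 had a larger SD than 81.3% of tested probes among controls and than 90.6% among mutants. Sox11 was more variable than 76.1% of probes among mutants but than only 27.5% among controls. The control SD of Foxn3 exceeded that of 8.49% of probes and the control SD of Zbtb18 that of 20.2%. In mutants these shares were 47.9% for Foxn3 and 29.4% for Zbtb18. All these shares are over tested probes of any brightness, and Pou3f3 lay near the detection limit.

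**Figure D3:**
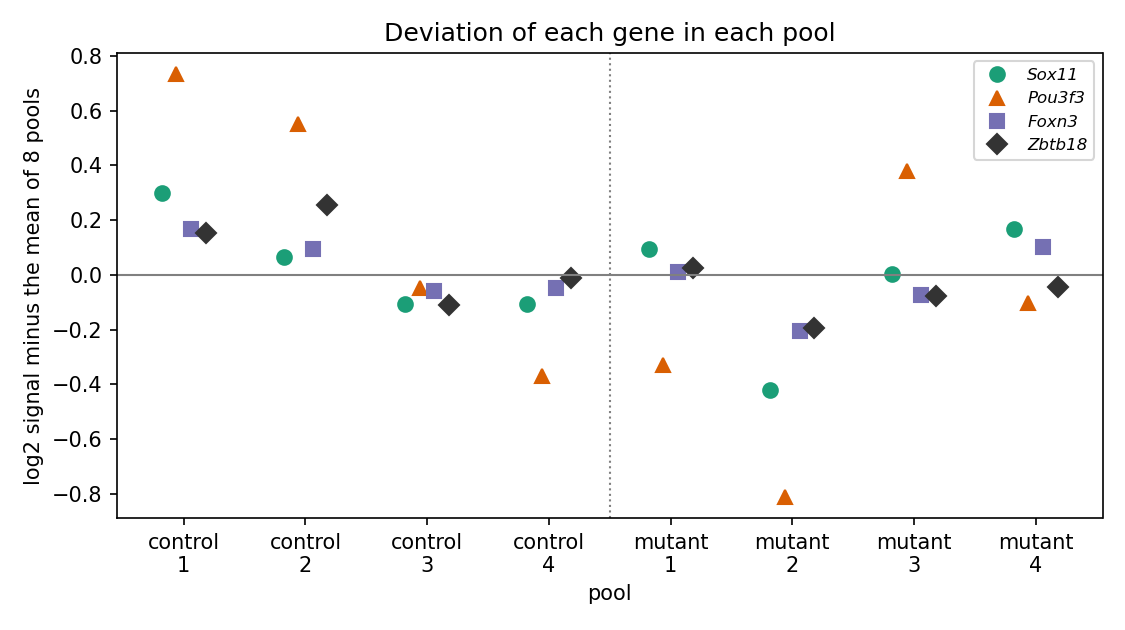
Log2 signal of each gene in each pool minus its mean over the 8 pools, with control pools on the left and mutant pools on the right. All 4 genes lie above 0 in control pools 1 and 2 and below 0 in control pools 3 and 4 and in mutant pool 2.

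The 4 genes lay on the same side of their own mean in 5 of the 8 pools, above it in control pools 1 and 2 and below it in control pools 3 and 4 and in mutant pool 2. In mutant pools 1, 3 and 4 they split. In mutant pool 1 Pou3f3 was at -0.33 and Sox11 at 0.09, in mutant pool 3 Pou3f3 was at 0.38 and Zbtb18 at -0.08, and in mutant pool 4 Sox11 was at 0.17 and Pou3f3 at -0.10. The closest pair was Sox11 and Foxn3, with Pearson's r = 0.94 (Spearman's rho 0.88) over the 8 pools and r = 0.95 (rho 0.77) over the 6 pools left without control pools 1 and 2. Of 17593 other tested probes, 3 followed Sox11 more closely than Foxn3 did. The other pairs were less close against that background. For Sox11, 323 probes were closer than Pou3f3 and 633 than Zbtb18. For Foxn3, 306 were closer than Zbtb18 and 824 than Pou3f3. For Zbtb18, 1631 probes were closer than Foxn3, 2736 than Pou3f3 and 3471 than Sox11. For Pou3f3, 1409 probes were closer than Sox11, 1630 than Foxn3 and 1631 than Zbtb18. Sox11 and Zbtb18 gave r = 0.68 over 8 and 0.80 over 6 pools, and Foxn3 and Zbtb18 gave 0.81 and 0.75. The pairs with Pou3f3 had r from 0.73 to 0.75 over 8 pools and from 0.30 to 0.63 over 6 pools, so their likeness was lower once the 2 distinct controls were left out. Over these 6 pools the rho of Pou3f3 was 0.09 with Foxn3 and -0.03 with Zbtb18. Mutant pool 2 was the lowest pool of all 4 genes after quantile normalization. Without this pool r was 0.89 for Sox11 and Foxn3, 0.71 for Foxn3 and Zbtb18 and 0.60 for Pou3f3 and Zbtb18. It was then 0.53 for Pou3f3 with Sox11 and with Foxn3, and 0.50 for Sox11 and Zbtb18. These correlations describe 8 arrays that share their normalization and, in control pools 1 and 2, a common deviation. The median r with all tested probes was 0.08 for Sox11, 0.21 for Pou3f3, 0.15 for Foxn3 and 0.24 for Zbtb18 over 8 pools.

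Among the 176 other tested probes with a symbol, the 3 whose signals were most like each gene over the 8 pools were as follows. For Sox11 they were 2700081O15Rik (r = 0.96, and 0.97 over 6 pools), Foxn3, and Dcaf12l1 (0.75, and 0.60 over 6 pools). For Foxn3 they were Sox11, 2700081O15Rik (0.91, and 0.89 over 6 pools) and Llgl1 (0.84, and 0.75 over 6 pools), a cell polarity gene. For Zbtb18 they were Zfp979 (0.95, and 0.83 over 6 pools), the ubiquitin ligase gene Ube3a (0.93, and 0.84 over 6 pools) and Trim41 (0.90, and 0.48 over 6 pools). For Pou3f3 they were Dcaf12l1 (0.88, and 0.70 over 6 pools), the RNA demethylase gene Alkbh5 (0.87, and 0.76 over 6 pools) and Llgl1 (0.84, and 0.54 over 6 pools). None of these passed the threshold between genotypes, with limma's adjusted p from 0.384 for Alkbh5 to 0.821 for Sox11. Most probes have no symbol, and the share of all tested probes closer than the named gene ran from 0% to 2.37%. It was 0% for 2700081O15Rik with Sox11 and 2.37% for Llgl1 with Pou3f3. For Pou3f3 the lowest share was 0.932%, for Dcaf12l1.

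Relatives of the 4 genes were scarce among the probes with a symbol. The Sox family had 2 further genes, Sox3 and Sox15, and neither was tested. Sox3, detected in 0 mutant and 1 control pool, had a highest signal-to-noise of 4.3. Sox15, detected in 1 mutant and 1 control pool, reached 4.87. No further POU, forkhead or BTB zinc finger gene was located, and 0 of the early kidney transcription factors, so these families cannot be set beside the 4 genes.

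Of the other sequence-specific transcription factors 15 genes were located with 16 probes, and 11 genes with 12 probes were tested. In limma's test 0 of the 12 probes rose and 0 fell, against 0.0682% and 0.392% of all tested probes. Their median difference was -0.01, against -0.06 over all tested probes, and 1 of 12 (8.33%) had an unadjusted p under 0.05. That one was Elf4, an ETS factor, at 10.98 ± 0.28 in controls and 10.37 ± 0.36 in mutants (log2 signal, SD, n = 4). Its difference was -0.61 (SE 0.21, limma's adjusted p = 0.305). Zfp979 differed by -0.23 (SE 0.17), Zkscan17 by -0.20 (SE 0.14) and Zfp352 by 0.16 (SE 0.13). The immediate early factor Jun differed by 0.09 (SE 0.11), Zfp60 by -0.04 (SE 0.14) and Zfp870 by 0.06 (SE 0.22). Both probes of Cebpb, a leucine zipper factor, were tested and disagreed in sign, with 0.10 (SE 0.17) for the brighter and -0.34 (SE 0.18) for the dimmer. Over the 12 probes limma's adjusted p lay between 0.305 and 0.98. With control pools 3 and 4 left out 2 of the 12 passed, where 26% of all tested probes did. These were Elf4 (-0.83, limma's adjusted p = 0.0442) and Zkscan17 (-0.42, limma's adjusted p = 0.036). That setting was picked on these same arrays. With control pools 1 and 2 left out 0 of the 12 passed, against 0.506% of all tested probes. The 4 developmental factors passed in neither.

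**Figure D4:**
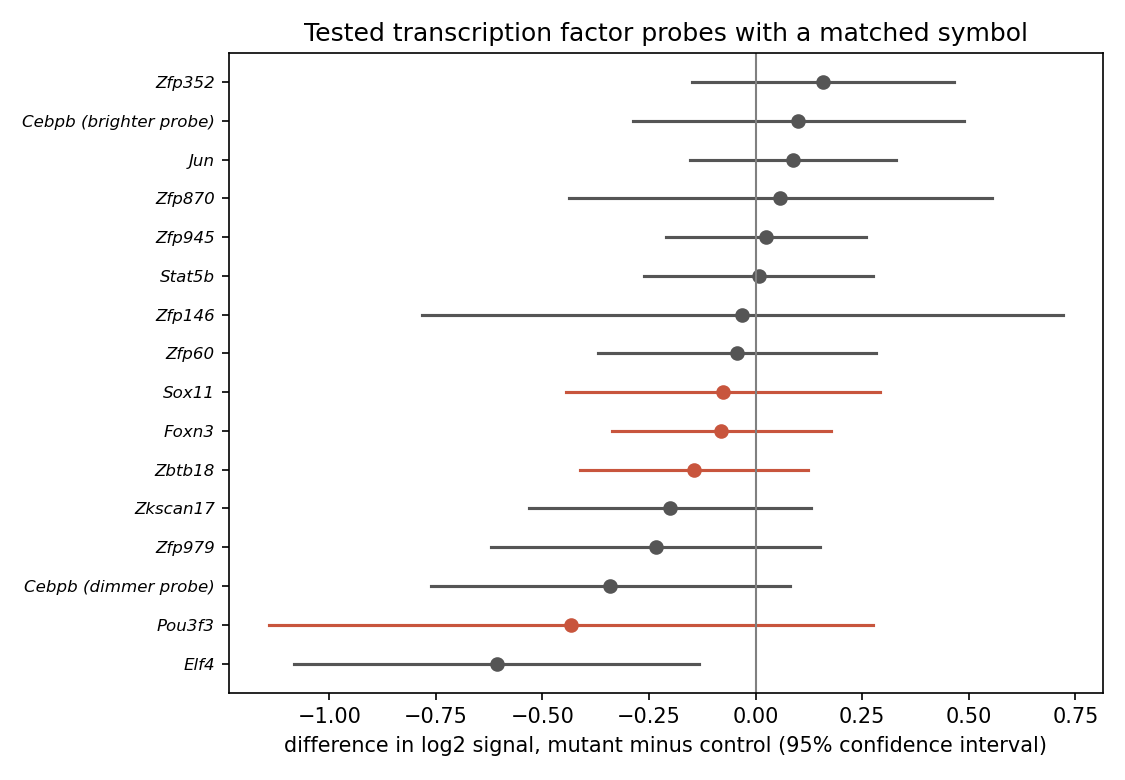
Difference in log2 signal, mutant minus control, with its 95% confidence interval from limma over all 8 pools, for the 16 tested transcription factor probes with a symbol; Sox11, Pou3f3, Foxn3 and Zbtb18 are in red. The 16 differences lie between -0.61 for Elf4 and 0.16 for Zfp352, and only the interval of Elf4 does not reach 0.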

How the data were processed

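Per the labels' protocols, amplified digoxigenin-labelled cRNA of 8 pools was hybridised to 1 array each. Per the file headers the authors gave each probe a signal, used here as a linear intensity. It has no value below 0 and was taken as corrected for background, although neither headers nor labels say so. A signal-to-noise score and a flag, both deposited by the authors, served as filters, and their array-normalized signal as an alternative. The whole-series table equals it in 264096 of 264096 cells. Reader software, the flag's meaning and the genome build: not given in the sources used here.

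Log2 signals were quantile normalized over 33012 probes (limma 3.58.1, R 4.3.3). Detection meant a signal-to-noise of at least 3 with a flag under 5000, and a probe was tested if detected in 3 of 4 pools of a genotype. Genotypes were compared by limma's moderated test, with Benjamini-Hochberg adjustment over the 17594 tested probes at 0.05, after a check on simulated data. The simulated pools were independent, with the same SD in both genotypes, unlike these arrays, so the check covers only the code. The number of arrays limits the precision. Symbols came from RefSeq (GRCm38.p6), by unversioned accession or synonym. The 4 genes, the 6 transcription factor lists and the 9 marker lists were chosen with earlier results of these data known. Of these 9, 8 had no located gene. The text names the 4 genes, the 3 probes with a symbol most correlated with each, and the members of each list, or the 8 of smallest p where more were measured, a gene with several probes being taken by its brightest. Alternatives changed scaling, values, offset, filter, variance model, weights, blocks and pools.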

Additional observations from a re-analysis of the deposited data

Results flagged for a closer look

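Cebpb in mutant pool 3, at the dimmer of its 2 probes, had a log2 signal of 10.66, while the other 3 mutant pools lay between 11.02 and 11.04. It was the only value far from the rest of its genotype among 32 groups of 4 pools checked, over the 16 tested transcription factor probes. Chance gives about 5% of groups. No value of Sox11, Pou3f3, Foxn3 or Zbtb18 met that limit.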

How the results depend on the processing

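No alternative brought Sox11, Pou3f3, Foxn3 or Zbtb18 past the threshold. Over 23 other settings (22 for Pou3f3, which was not detected in all 8 pools and so has no value under the strictest filter) limma's lowest adjusted p was 0.417 for Sox11, 0.0893 for Pou3f3, 0.31 for Foxn3 and 0.0967 for Zbtb18, each without control pools 3 and 4. Differences ran from -0.22 to 0.07 for Sox11, -0.86 to -0.01 for Pou3f3, -0.18 to 0.01 for Foxn3 and -0.28 to -0.01 for Zbtb18. The sign of Sox11 turned without control pools 1 and 2 (0.0669) and with array weights (0.0493), which were lowest for those 2 pools. That of Foxn3 turned without control pools 1 and 2 (0.0118). With 1 pool left out Sox11 ran from -0.15 to 0.0496, Pou3f3 from -0.63 to -0.23, Foxn3 from -0.13 to -0.03 and Zbtb18 from -0.20 to -0.08. The 81 called probes became 4566 without control pools 3 and 4, 285 with array weights, 36 with the average of mutant pools 1 and 4 as 1 sample (their array names give the same mutant number), 30 with no filter, 30 within the larger array date and 30 with the replicate block. With 1 pool left out the count ran from 38 to 65, and it was 38 without mutant pool 1 or 4. Dropping mutant pool 2 gave 48, mutant pool 3 gave 47, control pool 1 gave 44 and control pool 3 gave 49. The cause of these moves was not tested. No label says whether the shared replicate numbers of the titles pair the pools. The array names number mutant pools 1 to 4 otherwise, as 3, 1, 2 and 3, and control pools as 1 to 4. A pairing by the array names was not tested. By the title numbers, deviations of same-numbered pools correlated at -0.09, 0.18, 0.00 and 0.08, against -0.17 to 0.11 between pools of different numbers. With so few pools this cannot decide whether they were paired. The replicate block cannot move the differences, as each title number holds 1 pool of each genotype. With it limma's adjusted p ran from 0.549 for Pou3f3 to 0.831 for Sox11. The median difference over all tested probes was -0.06, and -0.12 when arrays were scaled on their medians, where the differences of Sox11, Pou3f3, Foxn3 and Zbtb18 were -0.14, -0.47, -0.18 and -0.23. The low signal-to-noise of Pou3f3 limits what its values can show.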
